A study of Rattus norvegicus with 47 samples.

Results

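The collagen chain genes of the rat kidney are described here across 6 groups of animals that carried metal pellets. They were chosen by name alone, as every row of the gene count table whose symbol is Col, a number, a and a number, and 44 of the 22525 genes in the table met that rule. By the fibre or sheet that each chain builds, 11 were fibrillar (types I, II, III, V, XI, XXIV and XXVII), 6 were the type IV chains of basement membranes and 27 belonged to other types. Enough reads were counted to test 41 of the 44, among 15868 tested genes, and 36 had a mean of at least 1 CPM (counts scaled to a common library total after TMM normalization) over all libraries.

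Kidney RNA was sequenced 12 months after surgery from rats given a small metal cylinder, 1 mm wide and 2 mm long. The metals were lead (Pb), depleted uranium (DU), cobalt (Co), tungsten (W), aluminum (Al) and tantalum (Ta). Ta, an inert metal, was the reference, so every animal including the controls had surgery and a pellet. The 47 libraries comprised 8 animals for each metal and 7 for Pb. Animals were assigned at random, but the animal numbers in the labels run in one block per metal, so any effect of handling order and the metal cannot be told apart. The labels used here give no strain, sex, age at surgery or dose.

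A collagen molecule is a triple helix of 3 chains, each the product of one gene. Fibrillar collagens form the strong fibres between cells, type IV forms the sheet under epithelia and around vessels, and other types link fibres to one another, to basement membranes or to cells. In the kidney, fibroblasts, pericytes and mesangial cells make most fibrillar collagen, podocytes make the mature type IV network of the glomerular filter, and excess fibrillar collagen is the hallmark of renal fibrosis.

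Type IV genes lie in pairs that are read away from each other, so 2 chains share the DNA between their starts. In the RefSeq annotation of rat (GRCr8), 76 bases separate the starts of Col4a2 and Col4a1, 412 separate those of Col4a4 and Col4a3, and 1414 separate those of Col4a6 and Col4a5. The stretches below are shown because the results turn on these genes: the whole space between Col4a2 and Col4a1 (chr16:84885521-84885596), the 250 bases before Col4a3 (chr9:91323740-91323989), the 250 bases before Col7a1 (chr8:118483114-118483363), the gene with the largest rise in the DU group, and part of the promoter of the fibrillar gene Col1a2 (chr4:33518307-33518416). All are the plus strand of RefSeq GRCr8, 5′ to 3′, and capitals mark the only matches to 3 promoter motifs searched on both strands: the CCAAT box (CCAAT), the TATA box (TATAAA) and the GC box (GGGCGG).
Between the starts of Col4a2 and Col4a1: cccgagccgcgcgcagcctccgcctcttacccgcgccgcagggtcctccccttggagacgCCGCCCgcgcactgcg
Upstream of Col4a3: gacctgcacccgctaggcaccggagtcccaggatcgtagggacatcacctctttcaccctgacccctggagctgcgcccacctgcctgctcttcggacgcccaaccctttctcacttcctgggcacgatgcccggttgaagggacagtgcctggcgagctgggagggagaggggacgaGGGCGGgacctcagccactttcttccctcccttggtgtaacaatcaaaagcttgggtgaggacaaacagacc
Upstream of Col7a1: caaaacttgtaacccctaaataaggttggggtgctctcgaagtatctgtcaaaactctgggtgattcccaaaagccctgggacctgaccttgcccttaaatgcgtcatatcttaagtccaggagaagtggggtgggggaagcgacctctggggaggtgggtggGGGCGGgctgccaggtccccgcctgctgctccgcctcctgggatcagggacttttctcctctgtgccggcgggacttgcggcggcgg
Upstream of Col1a2: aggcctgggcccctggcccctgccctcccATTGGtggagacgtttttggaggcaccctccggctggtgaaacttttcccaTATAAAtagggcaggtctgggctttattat
The Col4a2 to Col4a1 space and the Col4a3 and Col7a1 stretches each held 1 GC box and neither of the other motifs, while the Col1a2 stretch held 1 CCAAT box, on the minus strand, and 1 TATA box. RefSeq promoter windows, from 250 bases before to 50 after a gene's start, were matched for 35 of the 44 genes, as 38 windows. The motifs were searched only in the 250 bases before each start. A GC box was found there in 20 of the 38 (52.6%) and in 30.5% of 33465 windows of all genes. The CCAAT box was in 12 collagen windows (31.6%, against 34% of all), and the TATA box in 4 (10.5%, against 12.9%). These are matches of letters, with no evidence of binding.

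The libraries held 21604755 to 35775818 counts (median 26363810), spread over 14538 to 18015 genes with any read. Replicates 4, 5 and 6 of the Ta group stood apart with high macrophage markers (214 to 366 summed CPM against 71.0 to 121.01 in the other Ta libraries). Replicates 5 and 6 of the DU group did so too (427 and 845), and DU replicate 6 also had the lowest proximal tubule markers of all libraries (1103 summed CPM, against 3344 to 10255 elsewhere). The numbers of calls with and without these libraries, and the calls lost, are given after the single genes. All comparisons with a metal share the same 8 Ta libraries, so their directions are not independent.

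In the median gene, collagen transcripts were lower than under Ta in the Pb, Co, W and Al groups and higher in the DU group. Against Ta, 18 of the 41 tested genes fell in the Pb group (43.9%, against 29.2% of all tested genes) and 1 rose (2.44%, against 24.5%). In the Co group 11 fell (26.8%, against 12.2%) and in the Al group 3 fell (7.32%, against 12.4%). The number called in Co was 1 without Ta replicate 4. In the DU group 2 rose (4.88%, against 7.89%). These calls are from edgeR's quasi-likelihood test with Benjamini-Hochberg adjustment over all tested genes at 0.05. In the W group no collagen gene passed that test (1.78% of all genes did). In W edgeR gave 13 collagen genes an unadjusted p under 0.05, and after adjustment DESeq2 called 1 and limma voom none.

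The median log2 fold change of the 41 genes was -0.85 in Pb, -0.79 in Co, -0.66 in W, -0.50 in Al and 0.47 in DU. The same median over all tested genes lay between -0.07 and -0.01 in each comparison. Whether or not they passed the test, 34 of the 41 genes had a value below 0 in W and 36 in Co, 31 in Al and 27 in Pb, but 9 in DU. Summed over the 44 genes, collagen reached 1484, 1753 and 3462 CPM (lowest, median and highest library) under Ta. The sums were 1062, 1361 and 2139 CPM under W, 978, 1227 and 2063 under Co, and 1293, 1486 and 1943 under Al. Pb gave 1124, 1334 and 1367 CPM and DU 1519, 2545 and 5667, so all 7 Pb libraries lay below the lowest Ta library and the DU range reached furthest up.

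**Figure D1:**
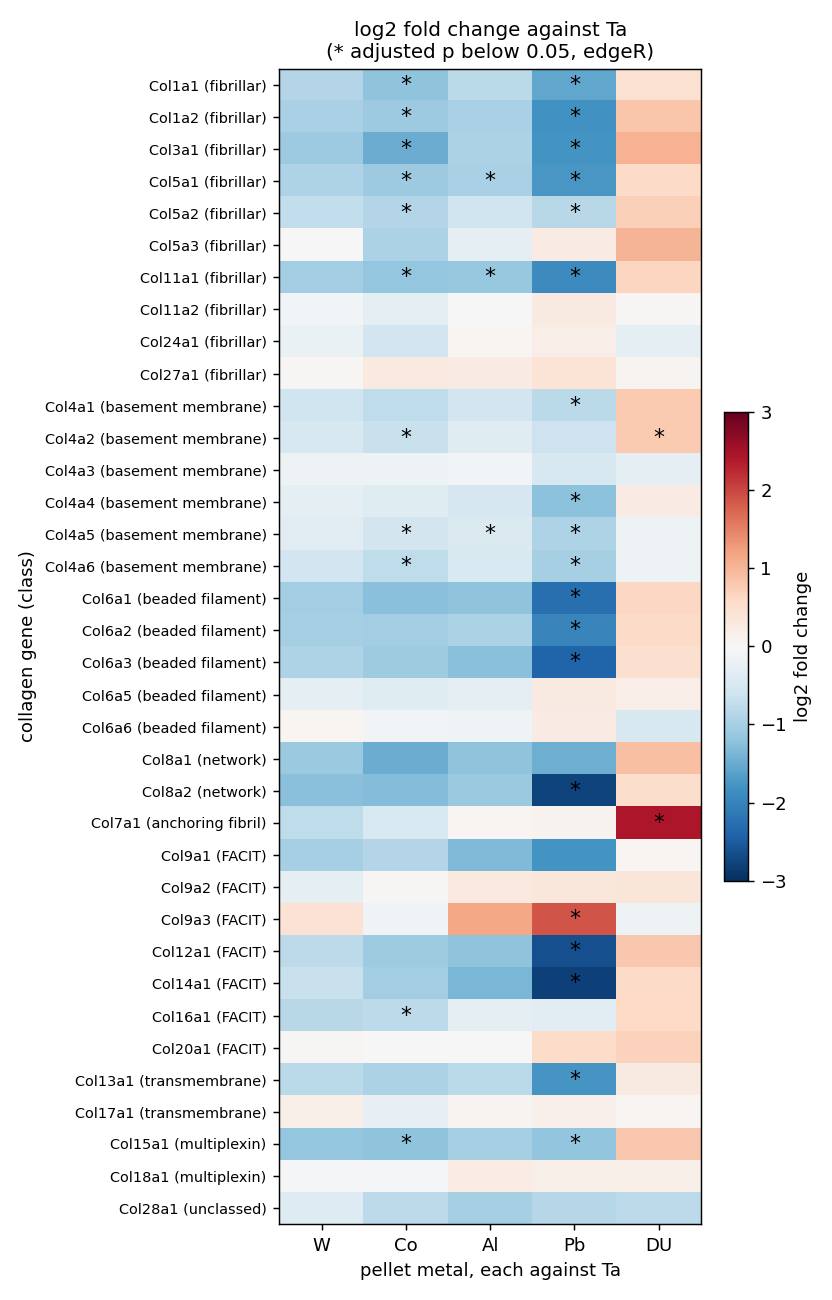
Log2 fold change against Ta, as colour, of the 36 collagen genes with a mean of at least 1 CPM (rows, with their class) in each of the 5 other metals (columns); stars mark an adjusted p below 0.05 in edgeR. Most fibrillar, type VI, VIII, XII and XIV genes are blue from W to Pb and red in DU, and Col7a1 in DU and Col9a3 in Pb are the darkest red cells.

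Among the fibrillar genes, which make the fibres that accumulate in scars, 6 of 11 fell in the Pb group: Col1a1, Col1a2, Col3a1, Col5a1, Col5a2 and Col11a1. The same 6 fell in the Co group, and Col5a1 and Col11a1 fell in the Al group. These are 54.5% in Pb (29.2% of all tested genes fell), 54.5% in Co (12.2%) and 18.2% in Al (12.4%). The class median log2 fold change was -1.33 in Pb, -1.03 in Co, -0.89 in W, -0.77 in Al and 0.58 in DU. In whole-kidney RNA, fewer collagen-producing cells and less collagen RNA per cell cannot be told apart.

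Col1a1 and Col1a2 encode the 2 chains of type I collagen, the main fibre protein of connective tissue. Col1a1 read 46.3, 76.1 and 217 CPM under Ta (lowest, median and highest library), 21.8, 48.7 and 121.8 under W, 9.66, 31.3 and 92.7 under Co, and 22.9, 49.0 and 106 under Al. Under Pb the values were 30.0, 31.1 and 40.9 CPM and under DU 47.7, 120.8 and 231. All 7 Pb libraries lay below every Ta library, 5 of 8 Co libraries did so, and only DU replicate 6 lay above every Ta library. The log2 fold change was -1.56 ± 0.40 (SE) in Pb (adjusted p = 0.000921) and -1.20 ± 0.38 in Co (adjusted p = 0.0161), both from edgeR. It was -0.89 ± 0.37 in W (adjusted p = 0.166), -0.81 ± 0.37 in Al (0.105) and 0.47 ± 0.37 in DU (0.437), none past the threshold.

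Col1a2 followed its partner chain. It read 35.2, 62.4 and 181 CPM under Ta, 17.5, 19.5 and 29.3 under Pb, 11.3, 25.4 and 84.6 under Co, and 42.6, 116 and 301 under DU. No Pb library overlapped the Ta range, whereas Co replicates 1 and 2 lay inside it. Its log2 fold change was -1.82 ± 0.42 in Pb (edgeR adjusted p = 0.000317), -1.08 ± 0.39 in Co (0.0374) and 0.82 ± 0.39 in DU (0.152).

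Col3a1, the type III chain of fine reticular fibres, spread widely between libraries. Its CPM were 58.5, 84.02 and 359 under Ta, 13.9, 51.1 and 157 under W, and 8.69, 29.9 and 115 under Co. They were 24.2, 61.6 and 105 under Al, 26.4, 34.9 and 46.0 under Pb, and 60.9, 177 and 779 under DU. Ta replicate 4 (359) stood above the next Ta library (184), and DU replicate 6 (779) above the next DU library (354). Col3a1 fell by 1.78 ± 0.52 on the log2 scale in Pb (edgeR adjusted p = 0.00359) and by 1.48 ± 0.49 in Co (0.0232), and was 1.04 ± 0.49 higher in DU without passing the test (0.146).

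Type V and type XI chains are minor partners that set the width of type I fibres. Col5a1 fell in all of Co (-1.09 ± 0.35, edgeR adjusted p = 0.0184), Al (-0.96 ± 0.35, 0.036) and Pb (-1.76 ± 0.37, 0.000102). It read 19.2, 25.8 and 45.5 CPM under Ta, 5.96, 9.15 and 11.9 under Pb, and 3.53, 15.4 and 29.6 under W, where 7 of 8 libraries lay below every Ta library. Col11a1 read 4.08, 10.4 and 21.6 CPM under Ta and 1.62, 2.999 and 4.18 under Pb, with 5 of 7 Pb libraries below every Ta library. Its log2 fold change was -1.17 in Co, -1.14 in Al and -1.91 in Pb (adjusted p = 0.0383, 0.044 and 0.00051). Without Ta replicates 4, 5 and 6 the Al calls of Col5a1 (-0.64, edgeR adjusted p = 0.257) and Col11a1 (-0.71, 0.30) were lost, as were their calls in Co. Col5a2 fell by 0.84 in Pb (0.0161) and by 0.88 in Co (0.0213), and its Pb call was lost without Ta replicate 4 (adjusted p = 0.112).

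The other fibrillar genes gave no call against Ta. Col27a1 and Col24a1, chains found mainly in cartilage and developing bone, had log2 fold changes of 0.40 ± 0.23 and 0.19 ± 0.42 in Pb (adjusted p = 0.134 and 0.721). Col27a1 read 76.2, 93.9 and 106 CPM under Ta and 52.7, 140.9 and 162 under Pb, so 5 of 7 Pb libraries lay above every Ta library and 2, replicates 1 and 4, lay below. Col11a2 was at 0.28 ± 0.23 in Pb (0.329) and Col5a3 at 1.01 ± 0.51 in DU (0.188). Col2a1, the cartilage chain, stayed at or below 1.16 CPM in every library.

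**Figure D2:**
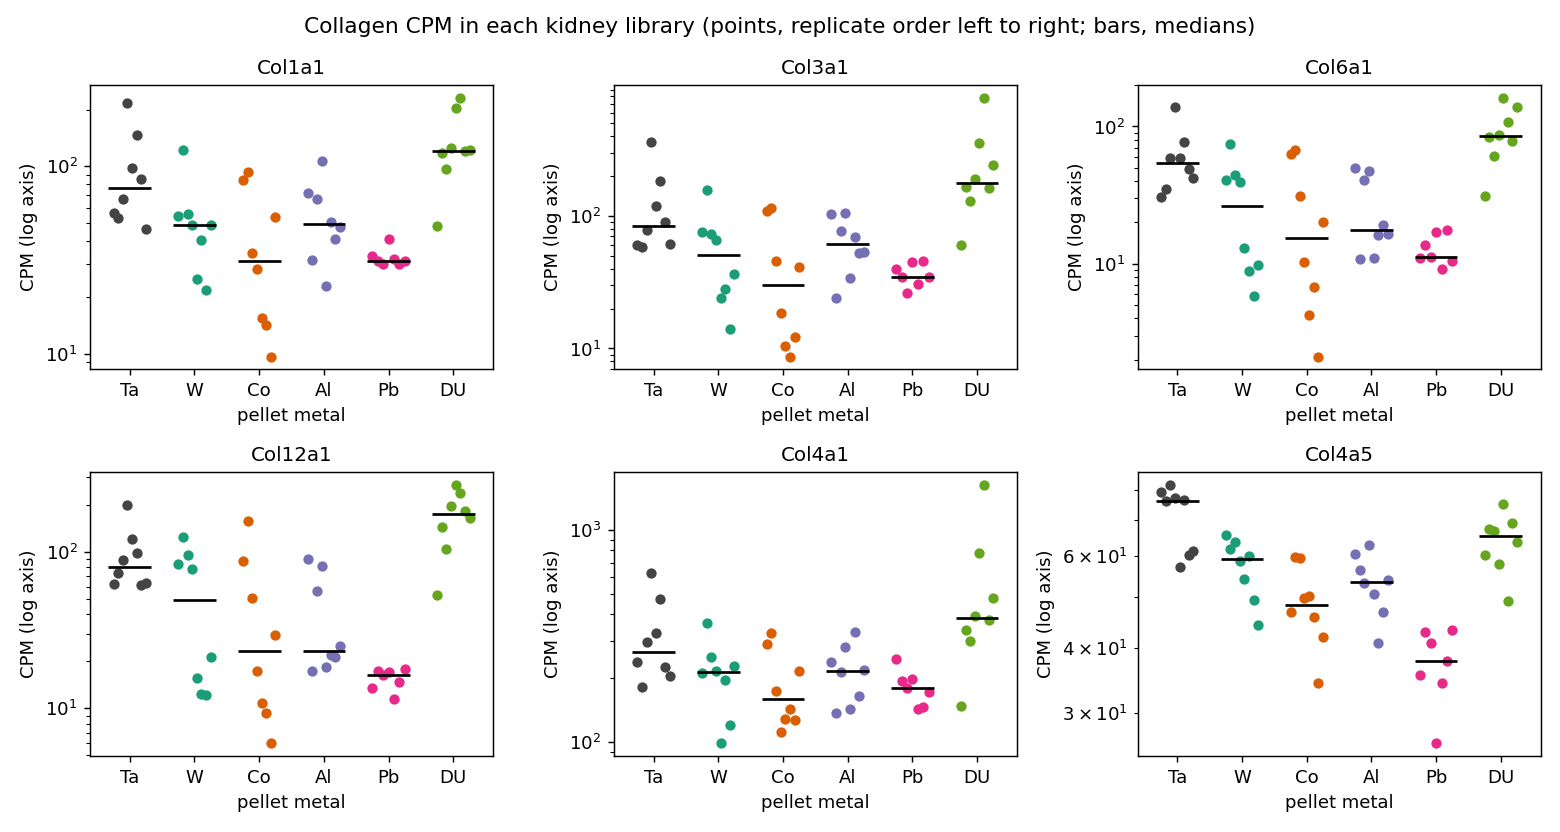
CPM (log axis) of 6 collagen genes in each of the 47 kidney libraries; each point is 1 animal, placed in replicate order within its metal, and bars are group medians. The Pb points of Col1a1, Col3a1, Col6a1, Col12a1 and Col4a5 lie below all Ta points, and in the first 4 of these genes W, Co and Al spread from the Ta range down into or below the Pb range.

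Libraries within the W, Co and Al groups did not move as one. In the W group, Col12a1 was 77.8 to 124.7 CPM in replicates 1 to 4 and 12.2 to 21.4 in replicates 5 to 8, and Col6a1 was 39.6 to 74.3 in the first 4 and 5.79 to 13.1 in the others. Replicates 1 to 4 thus lay within the Ta range of both genes and replicates 5 to 8 below it. In the Co group replicates 1 and 2 lay within the Ta range of Col12a1 (87.7 and 157 CPM), and replicates 4 to 7 were the lowest (5.98 to 17.2). In the Al group Col12a1 was 56.5 to 89.8 CPM in replicates 1, 3 and 4 and 17.3 to 24.9 in the other 5. These are descriptions of single animals, and no test was made between them.

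Of the 6 type IV genes, 4 fell in the Pb group (Col4a1, Col4a4, Col4a5 and Col4a6), 3 fell in the Co group (Col4a2, Col4a5 and Col4a6), Col4a5 fell in the Al group and Col4a2 rose in the DU group. With 6 genes a share moves in large steps: 66.7% fell in Pb (29.2% of all tested genes), 50% in Co (12.2%) and 16.7% in Al (12.4%), and 16.7% rose in DU (7.89%). The class median log2 fold change was -0.88 in Pb, -0.62 in Co, -0.44 in Al, -0.40 in W and 0.05 in DU. In DU the pair present in nearly all basement membranes, Col4a1 and Col4a2, stood at 0.79 each, and the 4 chains of the mature glomerular filter and Bowman's capsule lay between -0.26 and 0.25.

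Col4a1 read 182, 266 and 627 CPM under Ta, 98.5, 214 and 364 under W, 112, 159 and 325 under Co, and 137.2, 216 and 331 under Al. The values were 143.5, 180 and 246 CPM under Pb and 148, 384 and 1635 under DU. DU replicates 5 (778) and 6 (1635) exceeded every Ta library, DU replicate 1 (148) lay below every one, and 4 of 7 Pb libraries lay below the Ta range. The log2 fold change was -0.82 ± 0.33 in Pb (edgeR adjusted p = 0.032) and 0.79 ± 0.31 in DU (0.0797). The Pb call was lost in 5 of the 47 fits that each left out 1 library (Ta replicates 4 and 6 and Pb replicates 5, 6 and 7), with a highest adjusted p of 0.125.

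Col4a2, the partner chain, was high in the same libraries. It read 129.1, 182 and 395 CPM under Ta, 83.2, 125.1 and 220 under Co, 109, 140 and 161 under Pb, and 136.2, 261 and 1086 under DU. DU replicate 6 (1086) and replicate 5 (452) lay above the Ta range and the other 6 DU libraries inside it. It rose by 0.79 ± 0.26 on the log2 scale in DU (edgeR adjusted p = 0.0317) and fell by 0.68 ± 0.26 in Co (0.0474). The DU call was lost without DU replicate 6 (0.291) and without any one of Ta replicates 1, 2, 7 and 8, and without DU replicates 5 and 6 the log2 fold change was 0.18 (0.674). The Co call was lost in 34 of the 47 fits that each left out 1 library.

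Col4a3, Col4a4 and Col4a5 encode the chains that podocytes place in the glomerular basement membrane, and mutations in them cause Alport syndrome. Col4a5 fell in the Pb group with the smallest adjusted p of any collagen gene (-0.93 ± 0.11, edgeR adjusted p = 2.73e-09). It read 57.1, 76.4 and 81.95 CPM under Ta, 34.2, 48.3 and 59.6 under Co, 40.8, 53.5 and 62.7 under Al, and 26.3, 37.8 and 43.3 under Pb. All 7 Pb, 6 of 8 Co and 6 of 8 Al libraries lay below every Ta library. It fell by 0.55 ± 0.11 in Co (0.000273) and by 0.42 ± 0.11 in Al (0.00303), and the values in W and DU were -0.32 (0.0901) and -0.16 (0.332). Its calls in Co, Al and Pb each held in all 47 fits that left out 1 library.

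Col4a4 fell by 1.24 ± 0.30 in Pb (edgeR adjusted p = 0.000501). It read 11.6, 20.8 and 24.1 CPM under Ta and 5.21, 8.57 and 12.1 under Pb, and 6 of 7 Pb libraries lay below every Ta library. In the W group replicates 1 to 4 had 17.7 to 27.6 CPM and replicates 5 to 8 had 9.45 to 11.4. Col4a3, its neighbour on the chromosome, did not pass the test in Pb (-0.48 ± 0.26, adjusted p = 0.117), with 101.04, 180 and 257 CPM under Ta and 55.0, 148 and 181 under Pb. DU replicate 6 had 23.2 CPM of Col4a3, the lowest of the 47 libraries.

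Whether the 2 genes of a pair shifted unequally was asked of the log2 ratio of their CPM in each library, a measure taken up after the values were seen. Gene lengths cancel in its change between groups, though not in its level. The Col4a3 to Col4a4 ratio was 0.74 higher in Pb than in Ta (3.90 ± 0.52, SD, n = 7, against 3.17 ± 0.37, n = 8; two-sided exact permutation p = 0.00901). After Benjamini-Hochberg adjustment over the 15 ratios tested, 3 pairs in 5 metals, this exact permutation p became 0.0746, and 6 of 7 Pb libraries lay above every Ta library. It was 0.47 higher in Al (exact permutation p = 0.00995, adjusted 0.0746) and 0.53 lower in DU (0.0426, adjusted 0.16). The Col4a1 to Col4a2 ratio differed from Ta by -0.21 to -0.03 over the 5 metals (lowest adjusted exact permutation p = 0.118). The Col4a5 to Col4a6 ratio differed by -0.06 to 0.35 (lowest adjusted value 0.486), so no pair passed the threshold after adjustment.

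**Figure D3:**
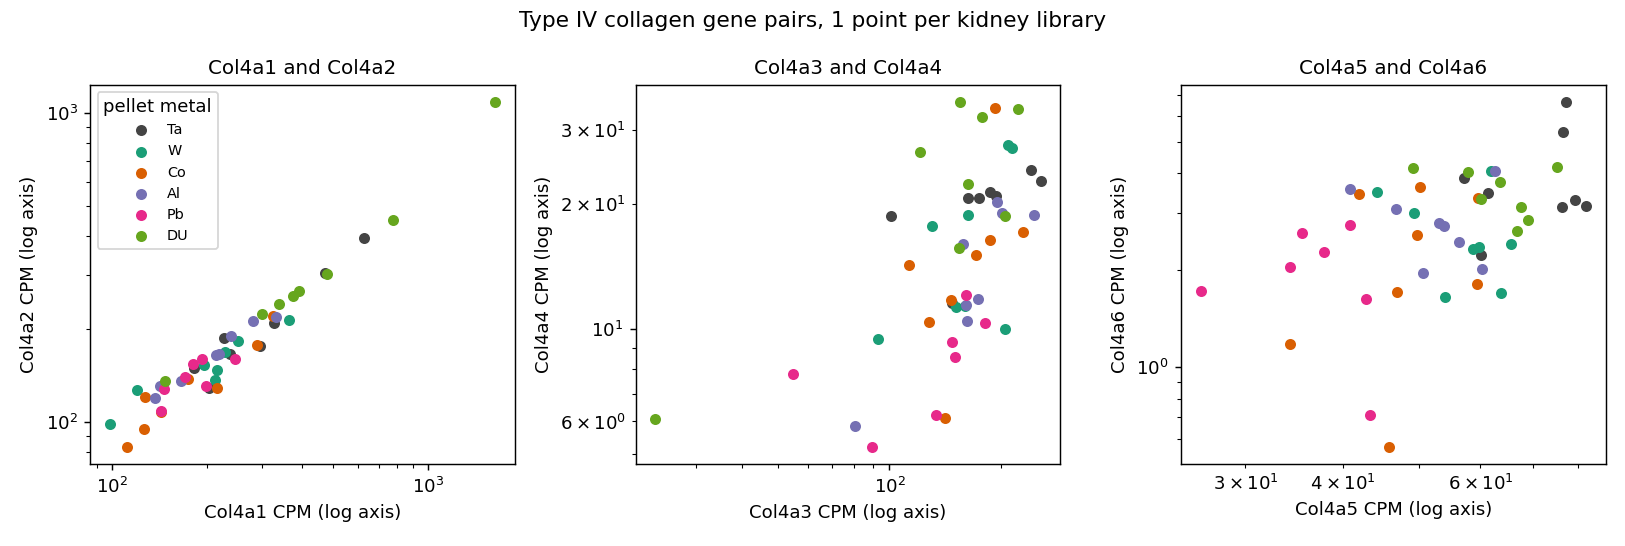
CPM of the 2 genes of each type IV pair plotted against each other (log axes), 1 point for each of the 47 libraries, coloured by metal. Col4a1 and Col4a2 lie along 1 line from the lowest library to DU replicate 6 (1635 and 1086 CPM), while the other pairs scatter and the Pb points of Col4a4 lie at 5.21 to 12.1 CPM.

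Col4a6, which joins Col4a5 in Bowman's capsule and smooth muscle, fell by 0.99 ± 0.28 in Pb (edgeR adjusted p = 0.00302) and by 0.77 ± 0.27 in Co (0.0319). Its levels were low, at 2.22, 3.39 and 6.63 CPM under Ta and 0.712, 2.04 and 2.76 under Pb, and 3 Pb libraries lay inside the Ta range. Podocyte markers fell in Pb and Al, as Col4a5 did. Col4a3 passed the test in neither metal, and Col4a4 passed it in Pb but not in Al. The summed CPM of 7 podocyte markers was 183 to 423 under Ta and 46.7 to 98.4 under Pb, and 7 of 7 markers fell in Pb and in Al. In Co, where Col4a5 also fell, 2 of 7 fell, and in W 0 of 7. Their median log2 fold change was -0.93 in Co and -0.88 in W. Of all tested genes, 29.2% fell in Pb, 12.4% in Al and 12.2% in Co, and 1.78% were called in W. The part of podocyte content in the type IV results was not tested.

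Of the 24 tested genes of other types, 8 fell in Pb, 1 rose in Pb, 2 fell in Co (Col15a1 and Col16a1) and 1 rose in DU. The share lower in Pb (33.3%) was near that of all tested genes (29.2%), and the shares lower in Co (8.33%, against 12.2%), higher in Pb (4.17%, against 24.5%) and higher in DU (4.17%, against 7.89%) were below it. Type VI collagen forms beaded filaments around cells. Its 3 main chains fell together in Pb, with log2 fold changes of -2.25 ± 0.54 for Col6a1, -1.98 ± 0.45 for Col6a2 and -2.41 ± 0.54 for Col6a3 (edgeR adjusted p = 0.00047, 0.000248 and 0.000191). Col6a1 read 30.6, 53.9 and 138.5 CPM under Ta, 9.20, 11.2 and 17.5 under Pb, and 31.1, 85.3 and 162 under DU. No Pb library of the 3 genes overlapped the Ta range, and DU replicates 5 and 8 were the highest DU libraries of Col6a1 (162 and 139.2).

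Col6a3 read 39.99, 63.3 and 155 CPM under Ta and 9.96, 13.4 and 20.05 under Pb, and ranged from 34.7 to 172 under DU. The chains Col6a5 and Col6a6, which can stand in for Col6a3 in the trimer, passed no test in Pb. Col6a6 was at 0.23 ± 0.24 in Pb and -0.47 ± 0.23 in DU (adjusted p = 0.418 and 0.163), with 21.8, 39.2 and 65.1 CPM under Ta and 27.9, 51.9 and 56.6 under Pb. All Pb libraries of Col6a6 lay inside the Ta range. Col6a5 was at 0.26 ± 0.41 in Pb (0.611).

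Types XII and XIV are FACIT collagens, which sit on the surface of type I fibres. Col12a1 read 60.997, 80.7 and 199 CPM under Ta, 12.2, 49.6 and 124.7 under W, 5.98, 23.3 and 157 under Co, and 17.3, 23.4 and 89.8 under Al. It read 11.4, 16.3 and 17.7 CPM under Pb and 53.0, 174 and 269 under DU, so Pb had the lowest median and the narrowest range. It fell by 2.63 ± 0.56 in Pb (edgeR adjusted p = 9.28e-05). Col14a1 fell by 2.81 ± 0.64 in Pb (0.000263), from 1.99, 3.21 and 7.13 CPM under Ta to 0.225, 0.460 and 0.817, with no overlap. Neither passed the test in Co (-1.06 and -1.04, adjusted p = 0.111 and 0.166) or Al (-1.21 and -1.36, 0.0709 and 0.0705).

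Col8a2, a chain of the hexagonal network of vessel walls and the cornea, fell by 2.78 ± 0.66 in Pb (edgeR adjusted p = 0.00039). It read 5.34, 7.71 and 15.04 CPM under Ta and 0.658, 1.13 and 2.09 under Pb, with no overlap, and it was not counted at all in Co replicate 6. Its partner Col8a1 was at -1.46 ± 0.64 in Pb (0.0507) and -1.48 ± 0.61 in Co (0.0655). Col13a1, a transmembrane collagen of cell contacts, fell by 1.77 ± 0.57 in Pb (0.00725), from 1.21, 1.69 and 3.56 CPM to 0.204, 0.562 and 0.771.

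The 2 multiplexins, basement membrane proteoglycans whose ends can be cut off as endostatin and related fragments, gave different calls. Col15a1 fell by 1.17 in Pb and by 1.21 in Co (edgeR adjusted p = 0.0285 and 0.0369), with 5.04, 12.6 and 42.5 CPM under Ta and 3.99, 7.12 and 9.33 under Pb. Its Pb call was lost without Ta replicate 4, Ta replicate 6 or Pb replicate 5 (highest adjusted p = 0.145). Col18a1 read 244, 270 and 377 CPM under Ta and 301, 335 and 354 under Pb, and was at 0.19 ± 0.10 in Pb and 0.23 ± 0.10 in Al (0.119 and 0.0801). All Pb libraries of Col18a1 lay inside the Ta range. Col16a1, a FACIT of the pericellular matrix, fell by 0.79 ± 0.26 in Co (0.021) and was at -0.84 ± 0.26 in W (0.0656).

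Col7a1 makes the anchoring fibrils that tie epithelial basement membranes to the tissue below. It rose by 2.42 ± 0.44 in the DU group (edgeR adjusted p = 0.000105). It read 2.29, 4.25 and 10.6 CPM under Ta and 7.14, 12.4 and 132.4 under DU. DU replicates 4 to 8 lay above every Ta library, and the other 3, at 7.14 to 9.29 CPM, lay below Ta replicate 4 (10.6) and above the remaining 7 Ta libraries. DU replicate 6 (132.4) stood apart from the next (15.7), and without DU replicates 5 and 6 the log2 fold change was 1.17 (0.00643). The call held in all 47 fits that left out 1 library, and it was lost in the fit with a term for small-protein balance (1.57, 0.106). In the other metals Col7a1 was between -0.76 and 0.11 and passed no test.

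Col9a3, a chain of the FACIT type IX known from cartilage, was the collagen gene that rose in the Pb group, by 1.89 ± 0.53 (edgeR adjusted p = 0.0022). It read 0, 1.56 and 2.38 CPM under Ta, 1.29, 3.17 and 5.61 under Al, 1.74, 6.15 and 9.92 under Pb, and 0.258, 1.21 and 2.51 under DU. In Pb 5 of 7 libraries and in Al 5 of 8 lay above every Ta library, and Pb replicates 1 (1.74) and 5 (2.09) lay within the Ta range. The value in Al, 1.16 ± 0.51, did not pass (0.0862). The other type IX chains passed no test: Col9a1 was at -1.80 ± 0.84 in Pb (0.0667) and Col9a2 at 0.35 ± 0.36 (0.43).

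**Figure D4:**
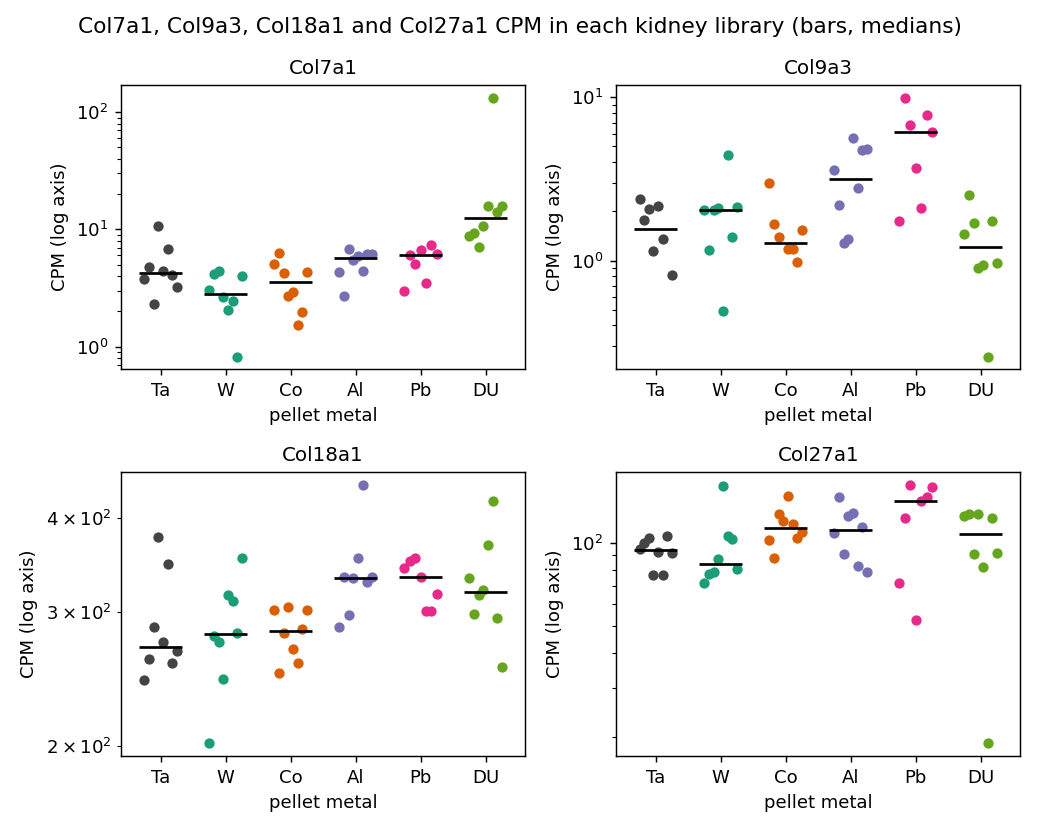
CPM (log axis) of Col7a1, Col9a3, Col18a1 and Col27a1 in each library, with bars at group medians; Ta replicate 7 and Co replicate 4 of Col9a3, at 0 CPM, cannot be drawn on this axis. The DU points of Col7a1 (7.14 to 132.4 CPM) lie high, with replicate 6 far above the rest, and the Pb points of Col9a3 reach 9.92 CPM.

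The remaining named genes, Col17a1, Col20a1 and Col28a1, passed no test against Ta. Col17a1, the hemidesmosome chain, lay between -0.25 and 0.19 over the 5 metals, and Col20a1 between -0.01 and 0.69. Col28a1 was between -1.005 and -0.39. A further 8 genes had a mean below 1 CPM (0.0563 to 0.352), and no library held more than 35 reads of any of them. Of these, Col2a1, Col6a4, Col19a1, Col22a1 and Col23a1 were tested without a call over all libraries, and Col10a1, Col25a1 and Col26a1 had too few reads to test.

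In the Pb group 12 collagen genes had every library below every Ta library, against 13.9% of all tested genes: Col1a1, Col1a2, Col3a1, Col4a5, Col5a1, Col6a1, Col6a2, Col6a3, Col8a2, Col12a1, Col13a1 and Col14a1. These are 29.3% of the tested collagen genes. In W, Co, Al and DU there was no such gene, and none in DU had every library above every Ta library. The share of all tested genes was counted for Pb only, so this absence is not read as a contrast with Pb.

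Compared over all 6 metals at once, 25 of 41 collagen genes differed (61%, against 58.4% of all tested genes), and over the 5 metals without Ta, 24 differed (58.5%, against 53.2%). Both shares were near those of all genes. Col4a6 differed over the 6 metals (edgeR adjusted p = 0.0163) and did not pass over the 5 (0.0826). Col7a1 (1.3e-08) and Col4a5 (5.54e-08) had the smallest adjusted p over the 6 metals.

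The groups at either end, DU and Pb, were also compared directly, without Ta, a comparison added after the values were seen. In DU 22 collagen genes were higher than in Pb (53.7%, against 25.9% of all genes) and 2 were lower (4.88%, against 23.7%), Col9a3 and Col6a6. The higher genes were 6 fibrillar, 5 type IV and 11 others. Col12a1 differed by 3.45 ± 0.58, Col14a1 by 3.38 ± 0.66, Col8a2 by 3.31 ± 0.67 and Col3a1 by 2.82 ± 0.54 (edgeR adjusted p = 6.21e-06, 4.79e-05, 8.53e-05 and 4.42e-05). Col9a3 was 2.06 ± 0.53 lower in DU (-2.06, adjusted p = 0.00128) and Col6a6 0.71 ± 0.24 lower (-0.71, 0.0116). Without DU replicates 5 and 6, 23 genes differed.

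Pb and Al were compared in the same way. Of W, Co, Al and Pb, Al had the smallest fall in the median log2 fold change (-0.50), so by that measure alone Al was not the group nearest to Pb. For single genes the order could differ, as for Col12a1 (-1.21 in Al, -1.06 in Co and -0.79 in W, against -2.63 in Pb). Pb was not tested against W or Co. Only Col4a5 differed, at -0.51 ± 0.11 in Pb against Al (edgeR adjusted p = 0.00173), or 2.44% of the tested collagen genes against 11.1% of all genes lower in Pb. Col12a1 was at -1.42 ± 0.53 (0.0538) and Col8a2 at -1.68 ± 0.64 (0.0571). For the other collagen genes a difference between Pb and Al was therefore not shown in this fit, although a fit of those 2 groups alone called 11.

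Measures of tissue content and RNA make-up also differed between the groups, though not always in step with the collagen genes. Markers of pericytes, mesangium and smooth muscle, cells that make fibrillar collagen, summed to 222 to 384 CPM under Ta and 68.4 to 109 under Pb. All 7 Pb libraries, 7 of 8 in each of W, Co and Al, and 3 of 8 in DU lay below every Ta library, and 8 of 8 of these markers fell in Pb, 6 in Co, 5 in Al and 2 in W. Of all tested genes, 29.2% fell in Pb, 12.2% in Co and 12.4% in Al, and 1.78% were called in W. Fibroblast markers summed to 210 to 482 CPM under Ta, 60.3 to 165 under Pb and 122.7 to 531 under DU, and 3 of the 5 measured fell in Pb, 2 in Al and 0 in Co. The fibroblast sum lay below every Ta library in 7 of 7 Pb, 7 of 8 Al, 6 of 8 Co, 2 of 8 W and 1 of 8 DU libraries. Endothelial markers summed to 178 to 270 CPM under Ta and 57.9 to 91.9 under Pb, with 5 of 6 lower in Pb, 5 in Al and 2 in Co. The endothelial sum lay below every Ta library in 7 of 7 Pb, 6 of 8 Co, 5 of 8 Al and 4 of 8 W libraries. Adipocyte markers went the other way: they summed to 35.9 to 76.6 CPM under Ta and 80.5 to 179 under Pb, and 7 of 7 Pb, 7 of 8 W, 7 of 8 Co, 4 of 8 Al and 3 of 8 DU libraries lay above every Ta library. Of the 4 adipocyte markers tested, 2 rose in Pb, 2 in Co, 1 in Al and 1 in DU, with a median log2 fold change of 1.11 in Pb. Over all tested genes 24.5% rose in Pb, 13.6% in Co, 12.8% in Al and 7.89% in DU. No marker of any list was at 0 in every library of a group.

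Macrophage markers were also higher in the DU group, and a link to collagen was not tested. Of 8 markers 4 rose in DU, as did 7.89% of all tested genes, and 3 of 8 fell in Pb. The sum of the markers was 71.0 to 366 CPM under Ta and 126.6 to 845 under DU. It was highest in DU replicates 5 and 6, which were also highest in fibrillar collagen. The summed CPM of Col1a1, Col1a2 and Col3a1 was 152, 223 and 757 under Ta, 78.9, 84.8 and 115 under Pb, and 151, 415 and 1311 under DU. In Pb 5 of 8 proximal tubule markers fell, with sums of 4287 to 5643 CPM against 5945 to 8651 under Ta, while 3 of 6 collecting duct markers rose and 1 fell. Over all tested genes 29.2% fell and 24.5% rose in Pb. With proximal tubule and collecting duct marker levels as added terms, 6 collagen genes were called in Pb (Col4a5, Col4a6, Col5a1, Col9a3, Col13a1 and Col14a1), 6 in Co and none in Al. The shares of all tested genes called in that fit are not given here, so these numbers are not read as particular to collagen. The part of these cell types in the collagen results was otherwise not tested.

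**Figure D5:**
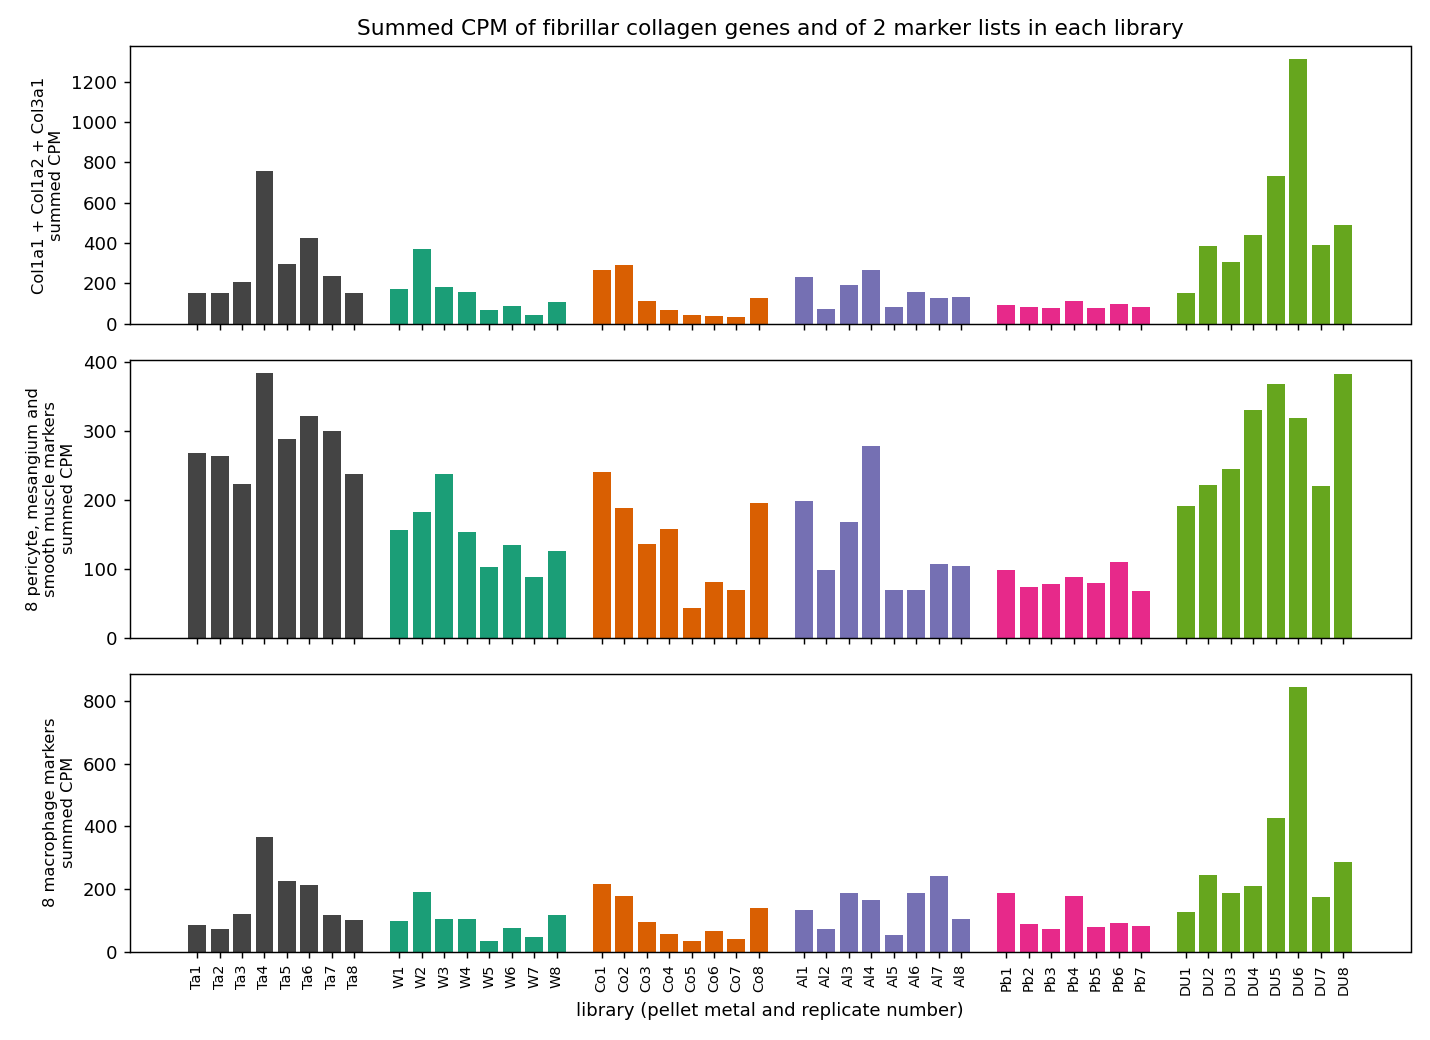
Summed CPM of Col1a1, Col1a2 and Col3a1 (top), of 8 markers of pericytes, mesangium and smooth muscle (middle) and of 8 macrophage markers (bottom) in each of the 47 libraries, 1 bar per library, on linear axes from 0. The 7 Pb bars are low in the top and middle rows (78.9 to 115 and 68.4 to 109 CPM), and DU replicate 6 is the highest bar of the top and bottom rows (1311 and 845 CPM).

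The balance between transcripts of ribosomal proteins (69 genes) and of very large proteins (36 genes), a measure that can shift with RNA quality, also moved with the groups. In mean log2 CPM it was 1.77 ± 0.30 under Ta (SD, n = 8), 2.19 under W, 2.61 under Co and DU, 2.76 under Al and 3.58 ± 0.49 under Pb (n = 7). All Co, Pb and DU libraries, 7 of 8 Al and 4 of 8 W libraries lay above every Ta library. With this balance as an added term, 1 collagen gene was called in Pb, Col4a3, now higher (1.43), none was called in Co, 1 in Al (Col4a3) and 1 in DU (Col4a4). Because no Pb, Co or DU library overlaps the Ta range of this balance, the balance and the metal cannot be told apart in those comparisons. Between DU and Pb the number called with this term was 24. The shares of all tested genes called with this term are not given here, so these numbers are not read as particular to collagen.

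The calls in Co and Al rested on few libraries. The number in Co was 11 with all libraries, 1 without Ta replicate 4, 7 without Ta replicate 5 and 4 without Ta replicate 6, and 1 (Col4a5) without these 3 together. It was 17 without Co replicate 1 or 2, 7 without replicate 4, 4 without replicate 5 or 7 and 5 without replicate 6. The 3 calls in Al became 8 without Al replicate 1 or 4, 5 without Co replicate 6 or 7, and 1 without Ta replicate 5 or any one of Al replicates 2, 5, 6, 7 and 8. In Pb 16 of 19 calls held in every fit that left out 1 library, and without Ta replicates 4, 5 and 6 together 13 of the 19 did. The 6 calls lost there were Col1a1 (-0.90, edgeR adjusted p = 0.0645), Col3a1, Col4a1, Col4a6, Col5a2 and Col15a1, and 3 genes, Col6a4, Col6a5 and Col18a1, were newly called higher. Col6a4 has a mean of 0.352 CPM and is named here after its values were seen. In Al 3 were called without those Ta libraries too, but only Col4a5 was kept, and Col6a4 and Col18a1 were newly called higher. The 2 calls in DU became 9 without Ta replicate 4, 4 without DU replicate 1 or 3, and 1 without DU replicate 6 or any one of Ta replicates 1, 2, 7 and 8. Without Ta replicates 4, 5 and 6, 12 were called in DU, among them Col1a1 (1.14), Col3a1 (1.92) and Col4a1 (1.30). Those Ta libraries were the highest of their group for these genes, so leaving them out lowers the reference. DU replicates 5 and 6, also high in macrophage markers, stayed in that fit, and no fit left out both sets. The larger number in DU is therefore not read as a result about DU.

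The genes that fold, trim, link, degrade and bind collagen were read as 7 lists of 72 genes, 67 of them tested. In Pb 36 fell and 3 rose, in Al 15 fell and 1 rose, in Co 16 fell and 1 rose, and in DU 5 rose and 2 fell. The shares lower were 53.7% in Pb (29.2% of all tested genes), 22.4% in Al (12.4%) and 23.9% in Co (12.2%), and the share higher in DU, 7.46%, was near that of all genes (7.89%). The shares higher in Pb (4.48%, against 24.5%), in Co (1.49%, against 13.6%) and in Al (1.49%, against 12.8%) and lower in DU (2.99%, against 7.39%) were below those of all genes. None was called in W by edgeR, where 18 had an unadjusted p under 0.05, DESeq2 called 3 and limma voom 1. The median log2 fold change over the 67 was -0.77 in Pb, -0.51 in Co, -0.47 in Al, -0.36 in W and 0.29 in DU. With the balance term, 7 were called in Pb, 2 in Co, none in Al and 1 in DU, and the shares of all tested genes in that fit are not given here. Without Ta replicates 4, 5 and 6, Bgn, Itgb1 and Pxdn lost their calls in Co and Al. Loxl1 lost its calls in Co (edgeR adjusted p = 0.368) and Pb (0.347), and Pxdn lost its call in Pb (0.0936).

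The list of assembly enzymes and chaperones stood near 0 in its median (-0.16 in Pb, 19 genes tested), with 7 lower and 3 higher in Pb. Beside this list and those below, 29.2% of all tested genes fell and 24.5% rose in Pb, and 12.2% fell in Co. P4hb, a subunit of prolyl hydroxylase, fell by 0.35 ± 0.12 in Pb (edgeR adjusted p = 0.0165). Ppib, the prolyl isomerase of the endoplasmic reticulum, rose in Co, Al, Pb and DU (0.38, 0.45, 0.79 and 0.52, adjusted p = 0.00586, 0.000846, 1.81e-08 and 0.00033). It read 142.2, 163 and 185 CPM under Ta and 243, 260 and 362 under Pb, and all 7 Pb and 8 DU libraries lay above every Ta library. Of 6 tested genes that trim collagen propeptides, 3 fell in Pb (Tll1, Adamts2 and Adamts14). Bmp1, the main C-propeptide protease, and its enhancer Pcolce were at 0.04 and -0.37 in Pb (adjusted p = 0.916 and 0.113).

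Of 6 cross-linking enzymes, 5 fell in Pb (Lox, Loxl1, Loxl2, Loxl4 and Pxdn) and 2 in Co (Loxl1 and Pxdn). Pxdn, the peroxidase that links type IV collagen, fell by 1.14 in Co, by 0.92 in Al and by 1.28 in Pb (edgeR adjusted p = 0.0106, 0.0348 and 0.00193). It read 12.6, 21.03 and 53.7 CPM under Ta and 5.26, 10.7 and 13.3 under Pb, with 6 of 7 Pb libraries below every Ta library. Genes of collagen degradation fell as well, 5 of 8 in Pb (Mmp2, Mmp14, Ctsk, Mrc2 and Timp3). Timp3, a matrix-bound inhibitor of metalloproteases, fell by 1.96 ± 0.25 in Pb (1.19e-08), from 87.8, 110 and 135.6 CPM to 17.8, 27.8 and 44.9, with no overlap. Timp2 was at -0.24 in Pb (0.351), and Timp1 was the gene of this list that rose in DU.

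Among collagen receptors, 6 of 8 fell in Pb (Itga1, Itga2, Itga11, Itgb1, Ddr2 and Lair1). Itgb1, the shared beta chain of the collagen-binding integrins, fell by 0.45 in Co, by 0.46 in Al and by 0.87 in Pb (edgeR adjusted p = 0.00723, 0.0065 and 3.71e-07). Ddr1, the epithelial collagen receptor kinase, was at 0.04 ± 0.13 in Pb (0.809). Of 6 small leucine-rich proteoglycans, which coat fibres, 4 fell in Pb, with Bgn at -1.15 in Co, -1.11 in Al and -1.62 in Pb (0.00477, 0.00551 and 3.21e-05). Dcn was at -0.73 in Pb (0.0509) and -0.76 in Al (0.0624). Dcn and Lum are also among the fibroblast markers used above.

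Laminins, nidogens and proteoglycans that share the basement membrane with type IV collagen split by gene. In Pb 6 of 14 fell (Lama2, Lama3, Lama4, Lamc1, Nid1 and Hspg2), and in DU Lamb3, a laminin chain, rose while Nid1 fell. Over all tested genes 29.2% fell in Pb, and 7.89% rose and 7.39% fell in DU. The list's 2 genes with the highest CPM, both chains of the glomerular laminin, passed no test: Lama5 was between -0.08 and 0.24 over the 5 metals and Lamb2 between -0.24 and 0.12. Lama5 read 176, 200 and 218 CPM under Ta and 176, 216 and 253 under Pb. The 5 genes of the lists without a value are Mmp8, Mmp13 and Tll2, which had too few reads to test, and Crtap and Pcolce2, not analysed here.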

How the data were processed

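Kidney RNA was extracted with TRIzol and DNase, per the labels' protocols. The authors deposited unnormalized counts for each gene, made with STAR 2.7.2a, the mRatBN7.2 build and featureCounts (Subread 1.6.4), per the submitters' processing notes. Annotation and strand setting are not given in the sources used here, so reads of overlapping genes cannot be told apart. Left out were 29 lines that name no usable gene.

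Under R 4.3.3, edgeR 4.0.16 fitted all 47 libraries at once (TMM, filterByExpr; glmQLFTest, two-sided), and p-values were adjusted by Benjamini-Hochberg over the 15868 tested genes, at a threshold of 0.05. Error bars of log2 fold changes are standard errors. Alternatives were RLE scaling, 2 filters, DESeq2 1.42.0, limma 3.58.1 voom with quality weights, a replicate block, covariates, fits of 2 groups and 47 leave-one-out fits. The script was tested on simulated counts. No replicates were copies of 1 library (lowest chi-square per degree of freedom 15.7 over 161 pairs). Groups come from the sample titles, in which each replicate is 1 animal.

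The genes, lists and tests were chosen with earlier results of these data known. Named were collagen genes with a mean of at least 1 CPM and the 2 genes with the highest mean CPM of each list. Of the marker lists not described in the results, 0 to 2 of 4 thick ascending limb genes were called in a metal (2 lower in Pb) and 0 to 1 of 6 urothelium genes. Promoter sequences and gene starts are from RefSeq (GRCr8), another build than the authors', matched by symbol. The result of 1 pathway gene is not reported here.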

Additional observations from a re-analysis of the deposited data

Results flagged for a closer look

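In 36 of 216 groups of libraries tested, 1 library of a collagen gene stood far from the others of its group by Dixon's criterion at the 95% level. For independent, normally spread values chance alone flags about 1 in 20 groups. The groups here are CPM of many genes in the same 47 libraries, so that rate may not hold and no excess is read from the number. Of the 36 flags, 8 were in Ta replicate 4, 8 in DU replicate 6, 4 in W replicate 2 and 3 in Al replicate 6. Values are CPM.

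Ta replicate 4 was the highest of its group for Col1a2 (181.26), Col3a1 (358.77), Col5a2 (78.578), Col6a1 (138.51), Col6a2 (126.57), Col6a3 (154.95), Col12a1 (198.94) and Col16a1 (40.929). Ta replicate 7 was the lowest for Col4a4 (11.559). DU replicate 6 was the highest for Col3a1 (778.52), Col4a1 (1635.3), Col4a2 (1086.4), Col7a1 (132.37), Col11a1 (45.318), Col13a1 (5.0558) and Col17a1 (14.429), and the lowest for Col27a1 (18.969). DU replicate 5 was the highest for Col6a6 (62.234). The same 2 libraries, Ta replicate 4 and DU replicate 6, had the highest summed macrophage markers of their groups (366.22 and 844.91).

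W replicate 2 was the highest of its group for Col1a1 (121.85), Col3a1 (157.49), Col11a1 (14.49) and Col15a1 (14.994), W replicate 5 for Col27a1 (159.53) and W replicate 6 for Col9a3 (4.433). Co replicate 2 was the highest for Col4a4 (33.88) and Col9a1 (4.119), Co replicate 1 for Col14a1 (5.3431) and Co replicate 8 for Col28a1 (4.9833). Al replicate 6 was the highest for Col6a5 (9.3089), Col18a1 (442.53) and Col24a1 (24.013), and Al replicate 1 for Col28a1 (4.1166). In the Pb group replicate 4 was the highest for Col1a1 (40.881) and the lowest for Col6a6 (27.897), replicate 6 the highest for Col6a3 (20.049) and replicate 7 the highest for Col28a1 (4.5356).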

How the results depend on the processing

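Numbers are collagen genes called, from 19 in Pb, 11 in Co, 3 in Al, 2 in DU and 0 in W, or, where said, genes of the 7 pathway lists called, from 39, 17, 16, 7 and 0. With RLE scaling and no filter no number moved beyond 1.5 times, and a strict filter moved only Pb against Al, from 1 to 2. The replicate block gave 8 in Al and 1 in DU, but replicate numbers do not pair the animals (median correlation 0.0116 over 115 pairs of the same number). Cell make-up terms gave 6 in Co, 0 in Al and 6 in Pb, and 3 list genes in Al and 19 in Pb. The balance term gave 0 in Co, 1 in Al, 1 in Pb, 1 in DU and 0 in Pb against Al, and 2 list genes in Co, 0 in Al, 7 in Pb and 1 in DU. Under it Col4a3 turned to 0.99 in Al and 1.43 in Pb and Col4a4 to 0.55 in Pb; the cause was not tested. Without Ta replicates 4, 5 and 6 there were 1 in Co and 12 in DU, and 4 list genes in Co, 6 in Al and 13 in DU. Without DU replicates 5 and 6, chosen after seeing the data, there were 1 in W, 1 in DU and 3 in Pb against Al, and 4 list genes in W and 2 in DU. Fits of 2 groups alone gave 5 in Co, 11 in Al, 1 in DU and 11 in Pb against Al, and 2 list genes in W, 27 in Al and 3 in DU. Limma voom gave 5 in Co, 11 in Al, 6 in DU and 6 in Pb against Al, and 1 list gene in W and 13 in DU. DESeq2 gave 1 in W, 7 in Al and 4 in Pb against Al, and 3 list genes in W. The shares of all tested genes called in these alternative fits are not given here.

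Leaving out 1 library at a time gave 17 to 23 in Pb, 1 to 17 in Co, 1 to 8 in Al, 1 to 9 in DU and 0 to 2 in W. It gave 24 to 26 over the 6 metals, 22 to 25 without Ta, 24 to 26 in DU against Pb and 1 to 4 in Pb against Al, highest without Al replicate 6. For the lists it gave 38 to 42 in Pb, 8 to 26 in Co (fewest without Ta replicate 4), 9 to 19 in Al, 0 to 3 in W and 3 to 13 in DU (fewest without DU replicate 6). Of 35 calls against Ta, 19 held in all 47 fits. The 8 genes below 1 CPM held at most 35 reads in a library, so a change there may not be detectable at this depth.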
